A study of Mus musculus with 6 samples.

Results

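Dormant blastocysts collected on day 7 were set as 1 pooled group against blastocysts of day 4, and the genes that moved the same way in both kinds of dormancy are described here. The pooled side held 4 arrays and the day-4 side 2, on the Mouse Gene 2.0 ST Array, which reads the signal of probes along each transcript. A gene was taken as a member when its level on all 4 day-7 arrays lay above, or on all 4 below, its level on both day-4 arrays; such a gene is called separated. Of 22180 genes with a probeset of their own, 4281 (19.3%) were separated, 2152 higher (9.7%) and 2129 lower (9.6%) on day 7. After a filter on dim genes, 3160 of 14020 genes (22.5%) were separated, 1281 higher (9.14%) and 1879 lower (13.4%). When each array was centred on its own median this split became 994 higher and 2439 lower. Separation uses the same 6 values as the pooled change, so the size and direction of a separated gene's change are descriptions of these arrays.

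All embryos came from let7g-transgenic mice, so no group lacked the transgene; the sources used here do not give the promoter that drives it. The D4-act-7g group was activated blastocysts of day 4, the Dor-7g group was dormant in vivo and taken on day 7, and the DOX-7g group was made dormant in vitro by inducing let-7 with DOX (doxycycline) and taken on day 7. Each group had 2 arrays, each array had RNA from 10 blastocysts, and that RNA was released by heating the embryos for 5 min in 10 µl of water. Nothing in the labels says that the replicates were separate mice or separate pools, so the p-values measure only the spread between these arrays, which may be technical. Dormancy and the later day come together in both dormant groups, and their effects cannot be told apart. In these pooled embryos, fewer cells of a type and less RNA per cell cannot be told apart either.

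Embryonic diapause is a reversible pause in which the blastocyst stops dividing, lowers its metabolism and waits for a signal from the uterus before it implants. In mice the pause follows when the rise of estrogen that normally triggers implantation does not come. Let-7 is a family of small RNAs that bind matching sites in messenger RNAs through a short seed at their 5′ end and lower the output of growth and stem cell genes. The mature let-7g of the mouse (RefSeq, GRCm38.p6, chr9:106178846-106178867, plus strand) is shown because its induction defines the DOX-7g group, with the seed, bases 2 to 8, in capitals.
mmu-let-7g-5p: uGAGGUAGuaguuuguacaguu
The 9 let-7 and miR-98 names of the RefSeq table all carried this seed. The Mirlet7g probeset, named for the precursor gene, gave 3.31 and 3.56 on D4-act-7g, 3.46 and 3.20 on DOX-7g and 3.50 and 3.59 on Dor-7g, below the median of every array and too dim to be tested. It checks neither the transgene nor the mature let-7.

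The array medians were 4.62 to 4.67 (log2 signal) on 5 arrays and 4.87 on Dor-7g replicate 1. That array also stood apart in its correlations across probesets, 0.899 to 0.919 with the others, against 0.978 between both D4-act-7g arrays and 0.969 between both DOX-7g arrays. The median absolute difference between replicates was 0.172 for D4-act-7g, 0.204 for DOX-7g and 0.365 for Dor-7g (log2). Blastocyst markers were read on every array: the summed level of the 6 trophectoderm markers tested was 13.2 to 13.7 (log2 of the sum), with Krt18 at 12.87 and 12.81 on day 4 and at 13.05 to 13.37 on day 7. Those of the inner cell mass summed to 7.54 and 7.95 on day 4 and to 7.25 to 7.87 on day 7, and Pou5f1 lay between 5.83 and 6.13 on all 6 arrays. Oocyte markers, a sign of older maternal RNA, summed to 9.73 and 9.93 on day 4 and to 9.05 to 9.57 on day 7.

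With 1 mean for the 4 day-7 arrays and 1 for both day-4 arrays, limma with Benjamini-Hochberg adjustment over all 14020 genes called 30 genes (0.214%) at an adjusted p of 0.05. Of these, 14 rose (0.0999%) and 16 fell (0.114%) on day 7, and all 30 were separated. An unadjusted p under 0.05 was reached by 1379 genes. The count of calls was 1 without either D4-act-7g array, 6 without DOX-7g replicate 2, 15 without Dor-7g replicate 2, 30 without DOX-7g replicate 1 and 32 without Dor-7g replicate 1. With a mean for each of the 3 groups, which does not count a difference between DOX-7g and Dor-7g as spread, 145 genes were called, and the 30 were among them. Gm5745, Lhfpl5, Rn7sk, Scarna17 and Stfa2l1 were called in all 4 fits that leave out 1 day-7 array, and Gchfr, Gclm and Sapcd1 in none of them. In 6 of the 30 a whole side lay below the array medians, both day-4 arrays for Aga, Rnu3a and Scarna17 and all 4 day-7 arrays for Lhfpl5, Slc25a41 and Stfa2l1. These 6 passed the filter through the side where they were high, and the sizes of their changes are uncertain, since the dim side may be background.

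**Figure D1:**
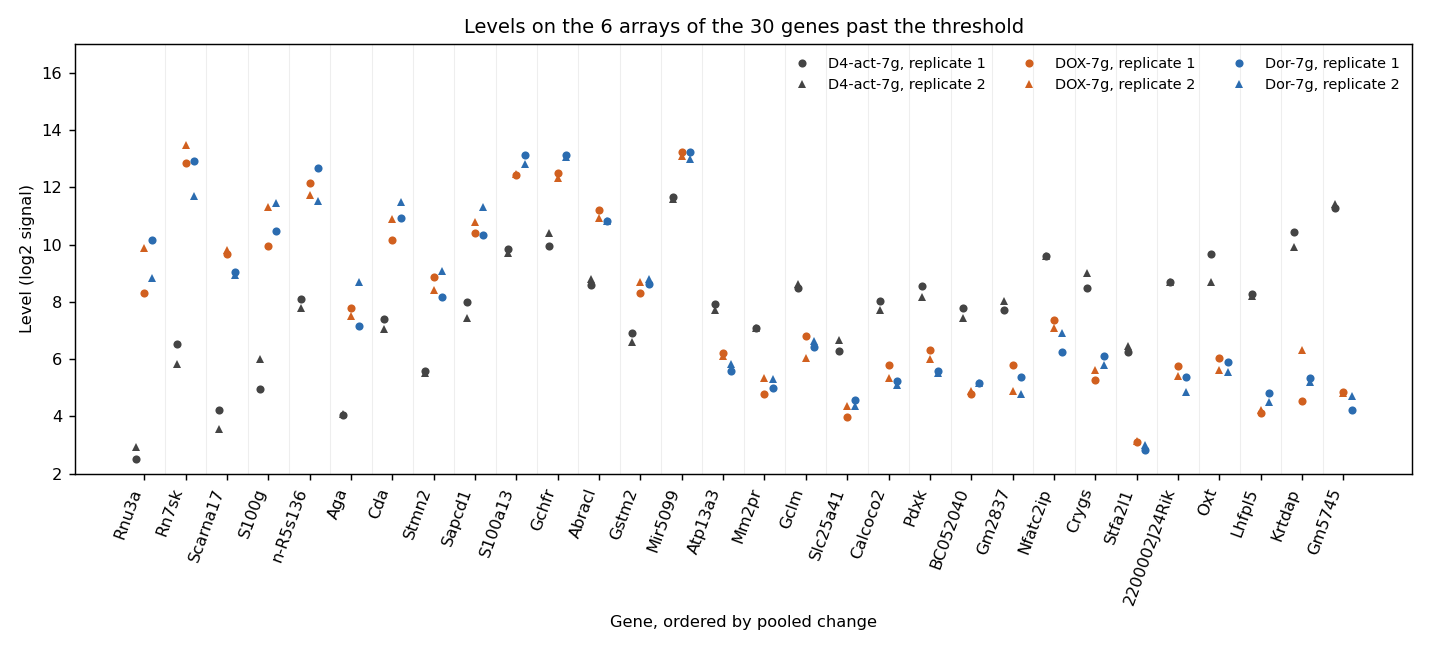
Level (log2 signal) of the 30 called genes on each of the 6 arrays; genes run from the largest rise, Rnu3a at 6.58, to the largest fall, Gm5745 at -6.69. Circles are replicate 1 and triangles replicate 2 of D4-act-7g (grey), DOX-7g (orange) and Dor-7g (blue), and in each gene the orange and blue points lie together on 1 side of the grey ones.

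The called rises included small structural RNAs, which are made in the nucleus and encode no protein. Rnu3a, the U3 RNA that guides the cutting of the ribosomal RNA precursor, read 2.50 and 2.92 on D4-act-7g, 8.31 and 9.86 on DOX-7g and 10.14 and 8.84 on Dor-7g. All 4 day-7 arrays stood well clear of both day-4 arrays, where the gene lay below the array median, and it rose by 6.58 ± 0.53 (SE; adjusted p = 0.0147). Rn7sk, the 7SK RNA that keeps the elongation factor P-TEFb inactive, read 6.53 and 5.82 on day 4, 12.85 and 13.48 on DOX-7g and 12.92 and 11.68 on Dor-7g, a rise of 6.56 ± 0.50; its second probeset gave 4.90. Scarna17, which guides the modification of spliceosomal RNAs and lay below the median on both day-4 arrays, rose by 5.46 ± 0.33, and its second probeset gave 4.78. A gene of the 5S ribosomal RNA, n-R5s136, rose by 4.08 ± 0.34, from 8.11 and 7.77 to between 11.52 and 12.68. As 5S genes are many near-identical copies, its probes cannot tell them apart.

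Not every RNA of this kind stood so. Of 17 structural RNAs listed, 12 had a probeset and 7 were tested. Among the 7, 5 (71.4%) were separated higher and 0 lower, against 9.14% and 13.4% of all genes. Of the 7, 3 were called, against 0.214% of all genes. On both day-4 arrays Rnu3a, Scarna17 and Rny1 lay below the array median. They passed the filter only through day-7 arrays, so these shares are partly set by the filter. Rny1, a Y RNA, was separated through 1 array: 9.05 on Dor-7g replicate 1, against 2.67 to 4.75 on the other day-7 arrays and 2.44 and 2.49 on day 4. Rpph1, the RNA of ribonuclease P, was high on both DOX-7g arrays at 8.33 and 7.88 and low on Dor-7g at 2.60 and 4.33. So 3 of these RNAs were called and high in both kinds of dormancy, and others were high on single arrays or on both DOX-7g arrays.

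In the S100 family of calcium-binding proteins, all 12 genes tested had a pooled change above 0, against 7161 of all 14020 genes. S100a4, S100a8 and S100a9 lay below the array medians on both day-4 arrays. They passed the filter only through day-7 arrays, which favours a rise. Limma called 2 of the 12, S100g and S100a13, against 0.214% of all genes. Of the 12, 9 (75%) were separated higher and 0 lower, against 9.14% and 13.4% of all genes, and the median pooled change was 1.34, against 0.01 over all genes tested. S100g, calbindin-D9k, which buffers and carries calcium in gut and uterine epithelium, read 4.97 and 6.01 on D4-act-7g, 9.93 and 11.31 on DOX-7g and 10.46 and 11.44 on Dor-7g. Its lowest day-7 array lay 3.92 above its highest day-4 array, and it rose by 5.29 ± 0.51 (adjusted p = 0.0238), a 39.2-fold change. S100a13, known for its part in the release of growth factors that lack a signal peptide, read 9.84 and 9.70 on day 4 and 12.42, 12.45, 13.13 and 12.81 on day 7. Its rise was 2.93 ± 0.24. Both calls were lost without some single arrays. The adjusted p of S100g was 0.0521 to 0.0746 without DOX-7g replicate 2, Dor-7g replicate 1 or Dor-7g replicate 2; it reached 0.253 and 0.140 when D4-act-7g replicate 1 or 2 was left out. That of S100a13 was 0.0599 without DOX-7g replicate 2, 0.0525 without Dor-7g replicate 2, and it reached 0.214 and 0.193 when D4-act-7g replicate 1 or 2 was left out.

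**Figure D2:**
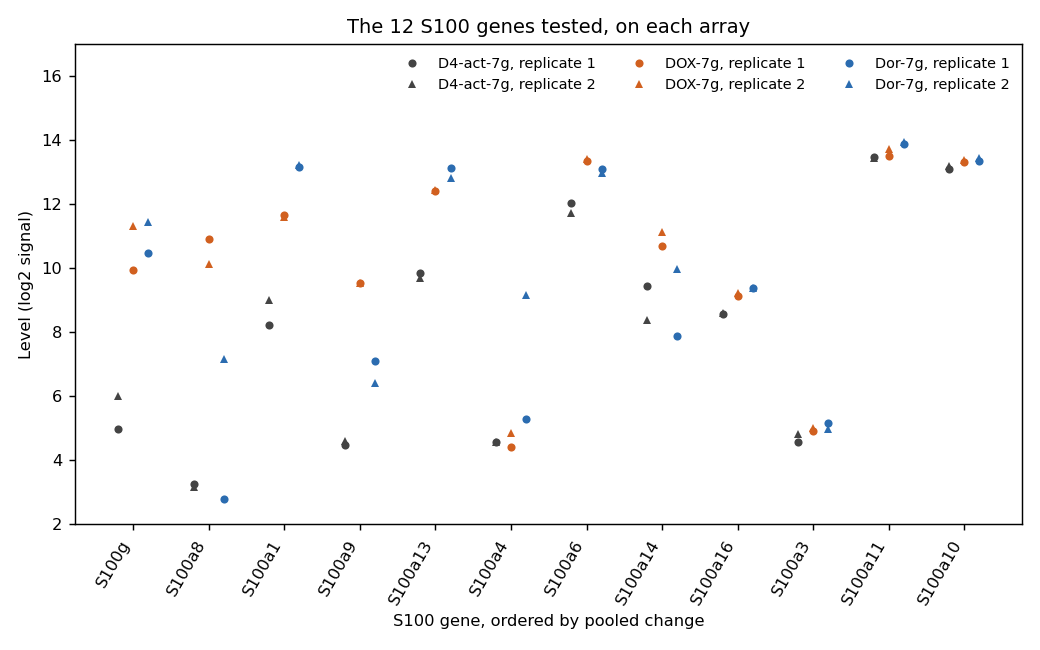
Level (log2 signal) of the 12 S100 genes tested on each array, ordered by pooled change; colours and symbols mark group and replicate. S100g and S100a13 lie far above day 4 in both dormant groups, whereas S100a8 is high at 10.91 and 10.12 on DOX-7g but at 2.81 and 7.18 on Dor-7g.

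Several S100 genes lay higher on day 7 without passing the threshold. S100a1 read 8.21 and 9.02 on day 4, 11.67 and 11.60 on DOX-7g and 13.16 and 13.22 on Dor-7g (pooled change 3.80, adjusted p = 0.0939), and S100a6, calcyclin, gave 1.32 (adjusted p = 0.0923). S100a9, a subunit of the neutrophil protein calprotectin, read 4.49 and 4.60 on day 4, 9.55 and 9.55 on DOX-7g and 7.10 and 6.41 on Dor-7g, so it was higher in both, with DOX-7g above Dor-7g by 2.79 (adjusted p = 0.00988). Its partner S100a8 was not separated, because Dor-7g replicate 1 read 2.81. S100a4, S100a8 and S100a14 were named after their values were seen. S100a14, which stands between S100a13 and S100a16 in the RefSeq gene order, was not separated either, at 7.87 on Dor-7g replicate 1 and 9.98 to 11.14 on the other day-7 arrays. Thus of the 4 neighbours S100a1, S100a13, S100a14 and S100a16, 3 were separated higher.

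Markers of other cells moved unevenly beside these genes. Of 7 uterine epithelium markers tested, 3 (42.9%) were separated higher (Muc1, Krt14 and Ltf) and 0 lower, against 9.14% and 13.4% of all genes. Krt14 read 4.51 and 4.62 on day 4, below the array medians, and 4.96 to 5.12 on day 7. It passed the filter only through day-7 arrays, so this share is partly set by the filter. Muc1 read 4.91 and 4.65 on day 4 and 5.74 to 6.11 on day 7, a change of 1.10 that missed the threshold in limma (adjusted p = 0.0983). All 11 uterine epithelium markers with a probeset, tested or not, summed to 8.39 and 8.25 on day 4, 8.98 and 8.71 on DOX-7g and 8.60 and 8.29 on Dor-7g (log2 of the sum). The 10 blood and immune markers with a probeset summed to 8.76 and 9.73 on day 4, 11.63 and 11.18 on DOX-7g and 8.86 and 9.93 on Dor-7g; 1 of the 7 tested, S100a9, was separated, and Ptprc, the common leukocyte marker, stayed between 3.57 and 3.82 on all 6 arrays, below every array's median. Without S100a8 and S100a9, which are on that list, the other 8 summed to 8.65 and 9.67 on day 4, 8.94 and 8.83 on DOX-7g and 8.32 and 9.54 on Dor-7g. Uterine stroma markers summed to 8.83 and 8.84 on day 4 and to 8.72 to 10.09 on day 7, with none of 7 separated. The part of other cells in the S100 result was not tested. Scgb1a1, uteroglobin, a secreted protein of airway and uterine epithelium named here after its values were seen, read 3.74 and 5.89 on day 4, 10.62 and 8.66 on DOX-7g and 10.34 and 8.65 on Dor-7g; its change of 4.75 missed the threshold (adjusted p = 0.124).

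The other rises were in enzymes, regulators and cytoskeletal genes. Aga, a lysosomal enzyme that removes sugar chains from asparagine, read 4.04 and 4.08 on day 4, below the array medians, and 7.16 to 8.70 on day 7, a rise of 3.73 ± 0.41. Cda, cytidine deaminase of pyrimidine salvage, rose by 3.65 ± 0.35, from 7.39 and 7.05 to between 10.17 and 11.48. The next in size were Stmn2, a stathmin that destabilises microtubules, with 3.06 ± 0.28, and Sapcd1 with 2.99 ± 0.32. Gchfr, the feedback regulator of GTP cyclohydrolase in the synthesis of tetrahydrobiopterin, rose by 2.59 ± 0.29 to 12.34 to 13.14 on day 7. Abracl, a small actin-linked protein, rose by 2.26 ± 0.18, and its second probeset gave 1.84. The last of the 14, both named after their values were seen, were Gstm2, a glutathione S-transferase, with 1.85 ± 0.20 and the microRNA gene Mir5099 with 1.51 ± 0.15.

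Among falls, Gm5745, a predicted gene named after its values were seen, read 11.27 and 11.43 on day 4, 4.86 and 4.82 on DOX-7g and 4.23 and 4.72 on Dor-7g. Its fall of 6.69 ± 0.22 (adjusted p = 0.000437) was the largest among the 30 called genes, 103-fold, and it went from bright to near the array median. Krtdap, a secreted protein of keratinocyte differentiation, read 10.44 and 9.90 on day 4 and 4.55, 6.32, 5.36 and 5.20 on day 7, a fall of 4.81 ± 0.47. Lhfpl5, a membrane protein known from the mechanotransduction channel of hair cells, fell by 3.81 ± 0.23 from 8.26 and 8.19, to below the median of every day-7 array. Oxt, the hormone oxytocin, read 9.66 and 8.69 on day 4 and 5.56 to 6.03 on day 7 and fell by 3.40 ± 0.30. Avp, the vasopressin gene next to Oxt in the RefSeq order and named after its values were seen, read 7.10 and 7.29 on day 4 and 6.95 to 7.18 on day 7 and was not separated. Crygs, a lens crystallin, fell by 3.03 ± 0.28.

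Stfa2l1, a stefin, read 6.25 and 6.45 on day 4 and 2.81 to 3.14, below every array's median, on day 7; its fitted fall was 3.33 ± 0.17, of uncertain size. Stefins inhibit cysteine proteases of the cathepsin kind, and the mouse genes are near-identical neighbouring copies, so their probes may share signal. Stfa1, the brightest of those named, read 12.18 and 12.41 on day 4, 9.86 and 10.08 on DOX-7g and 10.91 and 8.90 on Dor-7g, with a change of -2.36 that missed the threshold (adjusted p = 0.201). Cstdc6 gave -2.54 (adjusted p = 0.0534); both were named after their values were seen. Csta1 was also separated lower, and the neighbour Cstdc3 was not separated.

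Single falls touched vitamin B6, polyamine, glutathione and mitochondrial carrier genes. Pdxk, pyridoxal kinase, which makes the active form of vitamin B6, fell by 2.51 ± 0.27, from 8.55 and 8.18 to between 5.51 and 6.31. Calcoco2, an autophagy receptor, fell by 2.50 ± 0.24. Slc25a41, a mitochondrial carrier of ATP-Mg and phosphate, read 6.30 and 6.68 on day 4 and 3.98 to 4.59, below every array's median, on day 7, a fitted fall of 2.17 ± 0.22 and of uncertain size. Atp13a3, a transporter that takes up polyamines, read 7.91 and 7.71 on day 4, 6.21 and 6.11 on DOX-7g and 5.58 and 5.84 on Dor-7g and fell by 1.88 ± 0.22. In the polyamine list of 11 tested genes Atp13a3 was the only call, against 0.214% of all genes called. Of the 11, 3 (27.3%) were separated lower and 1 (9.09%) higher, against 13.4% and 9.14% of all genes. Odc1, the rate-limiting enzyme of polyamine synthesis, read 6.51 and 6.68 on day 4 against 5.50 to 6.56 on day 7 and was not separated. Nfatc2ip fell by 2.70 ± 0.31. BC052040, Mm2pr and, among genes named after their values were seen, 2200002J24Rik and Gm2837 complete the 16, with changes of -2.61, -1.99, -3.34 and -2.65.

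Gclm, the modifier subunit of glutamate-cysteine ligase, which makes the first step of glutathione synthesis, was the only call among 23 glutathione and redox genes tested. It read 8.49 and 8.63 on day 4, 6.80 and 6.03 on DOX-7g and 6.43 and 6.63 on Dor-7g, so all dormant arrays lay at least 1.69 lower, and it fell by 2.08 ± 0.24 (adjusted p = 0.0405). The call was lost in each fit that left out an array, with adjusted p from 0.0563 without DOX-7g replicate 1 to 0.349 without D4-act-7g replicate 2, and with median centring (adjusted p = 0.0686); the change stayed between -2.19 and -1.94. The catalytic subunit Gclc read 5.69 and 5.46 on day 4 and 5.22 to 5.71 on day 7 and was not separated. In the list, 1 gene was called, against 0.214% of all genes, and the median change was -0.13. There 9 genes (39.1%) were separated lower and 1 (4.35%) higher, against 13.4% and 9.14% of all genes. Among those separated lower were the synthetase Gss at -0.29, the glutaredoxin Glrx at -1.45 and the mitochondrial peroxiredoxin Prdx3 at -0.81. Nfe2l2, the factor that switches many of these genes on, read 6.65 and 6.58 on day 4 and 6.40 to 6.81 on day 7. The 150 bases before the start of Gclm (RefSeq, GRCm38.p6, chr3:122245407-122245556, plus strand) are shown because Gclm is a known target of that factor; capitals mark the match to the antioxidant response motif TGACNNNGC, here read on the opposite strand, 134 bases before the start.
Gclm: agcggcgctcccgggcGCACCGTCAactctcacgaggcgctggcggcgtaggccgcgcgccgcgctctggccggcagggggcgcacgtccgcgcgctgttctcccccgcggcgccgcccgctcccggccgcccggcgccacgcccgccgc
This motif, searched on both strands of the 250 bases before each start, stood at 4 of the 19 redox genes with a promoter entry (21.1%) and at 13.5% of the 10881 tested genes with one. A match is a description of the letters only.

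The separated genes were next read by function, with lists chosen after earlier results of these data were known. The whole list with the largest share separated lower was that of G2/M and mitosis, the genes that carry a cell from the end of DNA synthesis through division. Of 49 tested out of 63 listed, 30 (61.2%) were separated lower and 1 (2.04%) higher, against 13.4% and 9.14% of all genes. Of the 49, 45 had a pooled change below 0, against 6859 of all 14020 genes, and the median was -0.57. None passed the threshold in limma; an unadjusted p under 0.05 was reached by 19 of the 49, and by 1379 of all 14020 genes tested. The median change was -0.41 in DOX-7g and -0.67 in Dor-7g, each against the same D4-act-7g arrays. Without Dor-7g replicate 1, 30 members were separated lower and the median was -0.52.

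**Figure D3:**
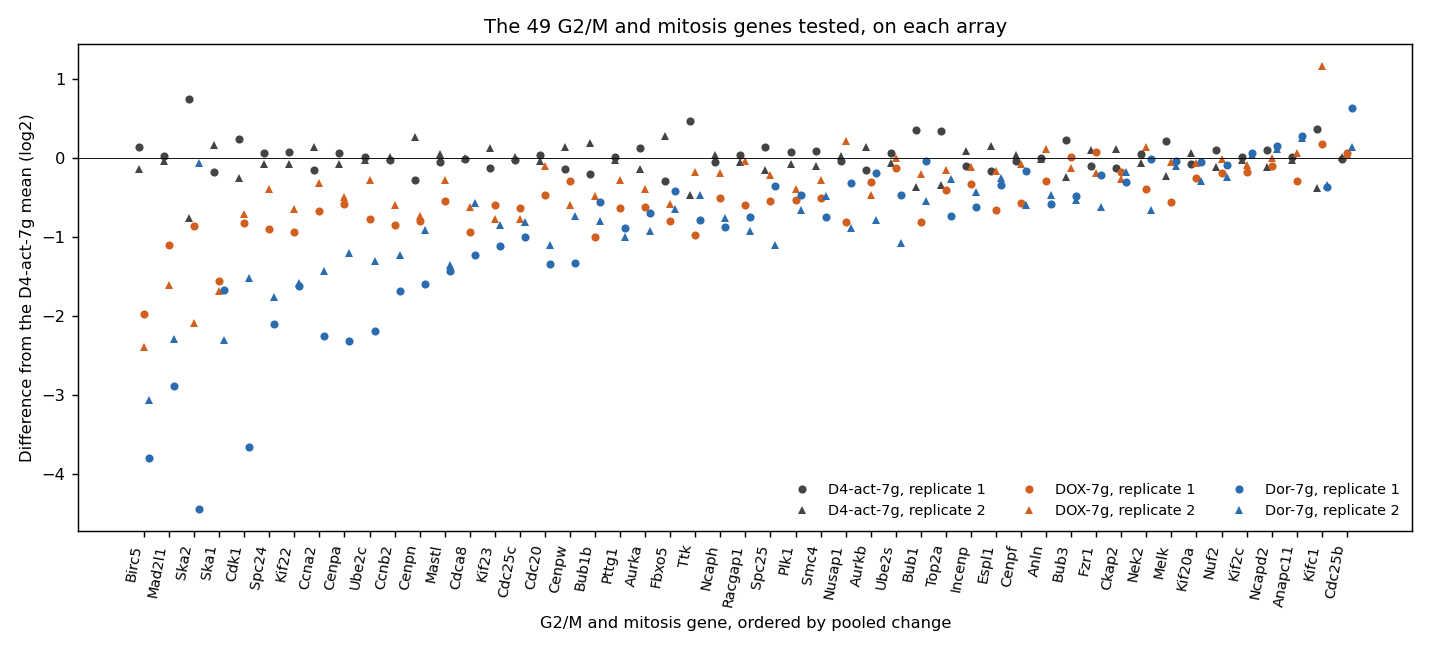
Difference of each array from the D4-act-7g mean (log2) for the 49 G2/M and mitosis genes tested, ordered by pooled change. Most orange (DOX-7g) and blue (Dor-7g) points lie below the line at 0, and the lowest points, for Ska2, Birc5 and Cdk1, are on Dor-7g replicate 1.

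Kinetochore, centromere and passenger genes were the most often separated of these, 10 of 12 (83.3%), all lower, against 13.4% of all genes. Their median was -0.92. Birc5, survivin, a subunit of the chromosomal passenger complex, read 8.47 and 8.19 on day 4, 6.37 and 5.94 on DOX-7g and 4.54 and 5.27 on Dor-7g, a change of -2.80 (adjusted p = 0.128). Ska1, which ties kinetochores to microtubules, came closest to the threshold, with -1.80 (adjusted p = 0.0830). Spc24 of the outer kinetochore read 11.72 and 11.58 on day 4 and 9.55 to 11.26 on day 7. Cenpa, the histone that marks centromeres, read 10.75 and 10.62 against 8.37 to 10.20. In all 4 genes the highest day-7 array lay below the lowest day-4 array, but the day-7 arrays spread widely.

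Of 14 mitotic cyclins, kinases and phosphatases, 9 (64.3%) were separated lower and 1 (7.14%) higher, against 13.4% and 9.14% of all genes. The median of the 14 was -0.62. Cdk1, the kinase that drives entry into mitosis, read 8.49 and 7.99 on day 4, 7.42 and 7.53 on DOX-7g and 4.59 and 6.72 on Dor-7g. Its partner cyclins Ccna2 and Ccnb2 gave changes of -1.16 and -1.08. Cdc25c, a phosphatase that activates Cdk1, read 5.34 and 5.37 on day 4 and 4.36 to 4.73 on day 7, a change of -0.80 (adjusted p = 0.171). Its relative Cdc25b was the member separated higher, by 0.22. The kinases Plk1 and Aurka lay lower by 0.51 and 0.65.

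The spindle checkpoint and anaphase-promoting complex held 6 separated of 10, all lower, with a median of -0.51. Mad2l1, the checkpoint protein that holds anaphase back, read 8.83 and 8.77 on day 4, 7.71 and 7.19 on DOX-7g and 5.92 and 6.51 on Dor-7g (-1.97, adjusted p = 0.252). Ube2c, which supplies ubiquitin to the complex, gave -1.13, its activator Cdc20 gave -0.75, and securin, Pttg1, gave -0.70. Of 13 spindle, motor, condensin and cytokinesis genes, 5 (38.5%) were separated lower, and the median was -0.39. The motors Kif22 and Kif23 gave -1.19 and -0.83.

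The G2/M promoters were searched because many mitotic genes carry the cell cycle homology region, CHR, near their start, where complexes that silence them in resting cells bind. The letters TTTGAA, and TTCAAA for the other strand, were searched in the 250 bases before each start. They stood at 9 of the 23 separated lower members with a promoter entry (39.1%), at 13 of 41 of the members tested (31.7%) and at 12.8% of the 10881 tested genes with an entry. Over all genes separated lower the share was 13.6% of 1509 entries, and over those separated higher 13.1% of 970. The motif lay within 30 bases of the start at 7 of the 23 separated lower members (30.4%) and at 8 of the 41 members tested (19.5%). It lay there at 108 of the 10881 (0.993%). The share was 1.72% over all genes separated lower and 0.825% over those separated higher. The 30-base limit was set after the positions were seen, so these shares are descriptions. Of the 23, the other 16 are not printed. The 100 bases before the start of the 7, picked for that position, follow. They run 5′ to 3′ on the strand of the gene (RefSeq, GRCm38.p6), with the motif in capitals.
Cdk1: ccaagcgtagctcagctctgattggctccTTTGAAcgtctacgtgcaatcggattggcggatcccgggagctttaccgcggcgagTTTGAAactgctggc
Cdc20: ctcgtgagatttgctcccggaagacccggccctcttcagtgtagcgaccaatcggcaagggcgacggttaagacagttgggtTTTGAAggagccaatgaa
Ube2c: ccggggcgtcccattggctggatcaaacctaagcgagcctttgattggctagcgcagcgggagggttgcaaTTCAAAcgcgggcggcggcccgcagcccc
Espl1: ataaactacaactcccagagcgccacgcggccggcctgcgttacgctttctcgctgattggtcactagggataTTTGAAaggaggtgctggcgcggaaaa
Kif22: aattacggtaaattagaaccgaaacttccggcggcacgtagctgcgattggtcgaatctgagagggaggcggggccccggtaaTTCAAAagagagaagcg
Cenpn: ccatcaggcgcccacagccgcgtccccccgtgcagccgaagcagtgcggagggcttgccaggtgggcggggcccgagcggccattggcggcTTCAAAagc
Cenpw: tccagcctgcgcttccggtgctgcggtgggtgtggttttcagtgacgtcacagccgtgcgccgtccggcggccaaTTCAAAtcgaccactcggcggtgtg
They lie on the minus strand at chr10:69352913-69353012 (Cdk1), chr4:118437344-118437443 (Cdc20), chr7:127042421-127042520 (Kif22) and chr10:30200541-30200640 (Cenpw), and on the plus strand at chr2:164769829-164769928 (Ube2c), chr15:102296193-102296292 (Espl1) and chr8:116921640-116921739 (Cenpn). Cdk1 holds the letters at 71 and 15 bases before the start. The pooled changes of the 7 genes ran from -1.67 for Cdk1 to -0.35 for Espl1, with -0.73 for Cenpw and -1.19 for Kif22. The match is not a measured binding site.

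Genes of DNA replication and nucleotide supply lay lower too, by less. Of 55 tested, 27 (49.1%) were separated lower and 1 (1.82%) higher, against 13.4% and 9.14% of all genes. A change below 0 was found in 50 of the 55, and in 6859 of all 14020 genes. Limma called none, and 16 had an unadjusted p under 0.05, against 1379 of all genes. The median was -0.32. Rrm2, the inducible subunit of the enzyme that makes deoxyribonucleotides, read 8.10 and 8.04 on day 4, 6.39 and 6.82 on DOX-7g and 6.17 and 5.87 on Dor-7g, the change being -1.76 (adjusted p = 0.0939) and -1.68 on its second probeset. Cdc45, a part of the replicative helicase, gave -1.07, and Cdt1, which loads that helicase, gave -0.73. Mcm3, Mcm4, Mcm5 and Mcm7, subunits of the helicase, were separated lower by 0.58, 0.21, 0.78 and 0.30. Pcna, the sliding clamp, read 9.84 and 9.97 on day 4 and 9.66 to 9.80 on day 7, a gap that is small beside the changes above. Fen1 was the member separated higher, by 0.32.

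**Figure D4:**
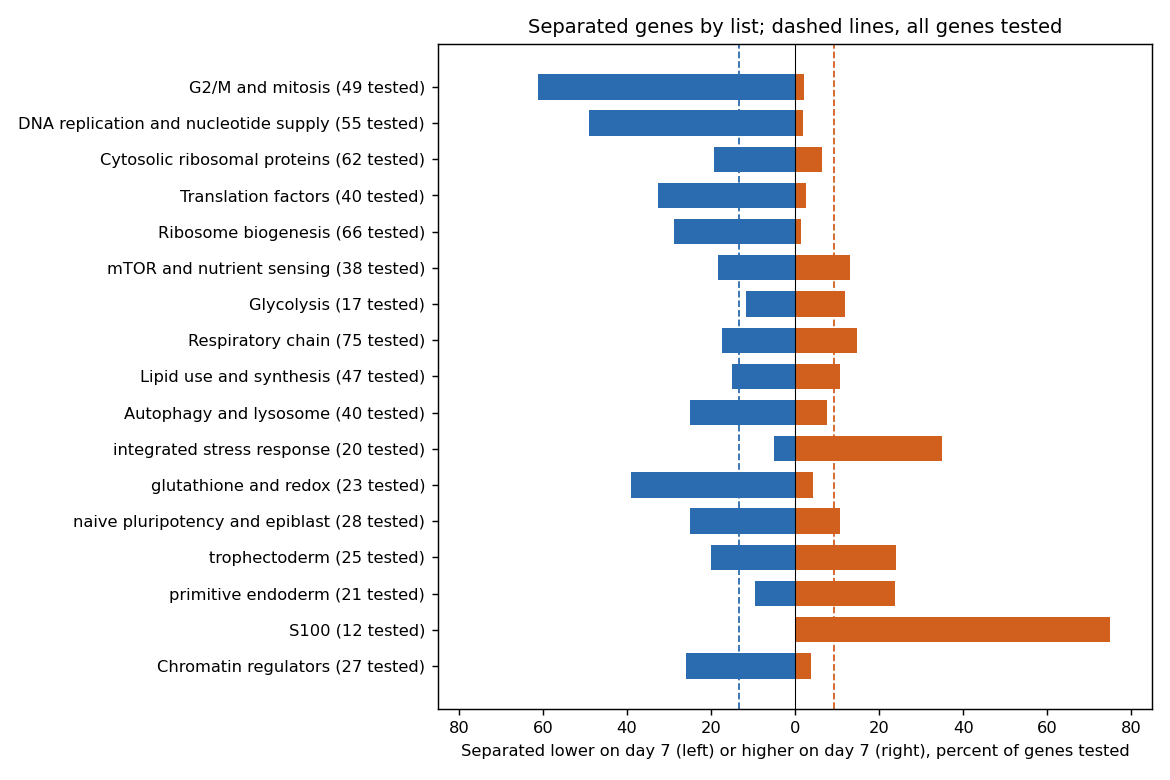
Percent of the genes tested in each list that were separated lower (blue, left) or higher (orange, right) on day 7, with dashed lines at 13.4% and 9.14%, the shares of all genes tested. The G2/M and replication lists reach 61.2% and 49.1% on the left, and the S100 list reaches 75% on the right.

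Protein synthesis lists are set against the 13.4% of all genes separated lower and the 9.14% separated higher. Limma called none of these genes. An unadjusted p under 0.05 was reached by 5 of 40 translation factors, 8 of 66 ribosome biogenesis genes and 8 of 62 ribosomal protein genes. It was reached by 1379 of all 14020 genes. Of 40 translation factors, 13 (32.5%) were separated lower and 1 (2.5%) higher, with a median of -0.26; the initiation factors Eif5 and Eif4h gave -0.97 and -0.95, and the termination factor Gspt1 gave -0.92. Of 66 ribosome biogenesis genes, 19 (28.8%) were separated lower and 1 (1.52%) higher, with a median of -0.11. Cytosolic ribosomal protein genes had 12 of 62 lower (19.4%) and 4 higher (6.45%), near the shares of all genes, and a median of -0.05. A few of them moved far, however: Rps16 read 9.02 and 8.59 on day 4 and 5.46 to 7.29 on day 7, and Rpl30 read 10.55 and 10.81 against 6.79 to 9.20, both short of the threshold. Many ribosomal protein genes have near-identical pseudogenes, so these values are uncertain.

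In lists of growth signalling and fuel use the separated genes went both ways. Over all genes tested, 9.14% were separated higher and 13.4% lower. Mtor, the kinase at the centre of nutrient sensing, read 5.65 and 5.91 on day 4 and 5.53 to 5.71 on day 7. Myc, a transcription factor of cell growth, read 7.76 and 7.39 on day 4 and 7.36 to 7.55 on day 7, and Mycn gave a change of 0.38; none of these was separated. Of 38 mTOR and nutrient sensing genes, 5 were separated higher and 7 lower. Castor1, an arginine sensor, was the largest among those separated lower, with -1.34 (adjusted p = 0.152). Glycolysis held 2 and 2 of 17, lipid genes 5 and 7 of 47, and the respiratory chain 11 and 13 of 75. Cox6b2, a testis form of a cytochrome oxidase subunit, read 9.26 and 8.21 on day 4 and 10.19 to 11.76 on day 7 (2.16, adjusted p = 0.280). Of 40 autophagy and lysosome genes, 3 were separated higher and 10 lower, with Map1lc3b, which coats autophagosomes, at 9.58 and 9.88 on day 4 and 7.91 to 8.77 on day 7. The medians of the mTOR, glycolysis, lipid and respiratory lists lay within 0.04 of 0, and those of mTOR, lipid and respiratory genes were above 0 here and below 0 when arrays were centred on their medians.

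In the integrated stress response, in which Atf4 switches on genes of amino acid supply, 7 of 20 (35.0%) were separated higher and 1 (5.00%) lower. The shares of all genes were 9.14% and 13.4%. This list had a median of 0.12, and none of its genes was called. Nupr1, a stress-induced chromatin protein, read 8.42 and 7.52 on day 4, 10.07 and 11.17 on DOX-7g and 11.81 and 11.60 on Dor-7g. Its change of 3.20 was by far above that of the other members and missed the threshold (adjusted p = 0.103). Asns, asparagine synthetase, gave 0.75 and Chac1, which breaks down glutathione, gave 0.63. Atf4 itself read 10.17 and 10.13 on day 4 and 10.20 to 10.44 on day 7. Ddit3 was not separated.

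Lineage genes were separated in both directions. Of 28 genes of naive pluripotency and the epiblast, 7 (25.0%) were separated lower and 3 (10.7%) higher, against 13.4% and 9.14% of all genes. Their median was -0.28. Dppa2 read 8.07 and 7.84 on day 4, 5.61 and 5.96 on DOX-7g and 4.91 and 4.88 on Dor-7g, a change of -2.62 that missed the threshold (adjusted p = 0.0675). Dppa3, a maternal and pluripotency factor that protects DNA methylation, gave -1.71, from 12.92 and 12.96. Nanog and Pou5f1 were not separated, with changes of -0.25 and -0.16. Nr0b1, named after its values were seen, lay higher: it read 5.10 and 6.02 on day 4, 8.02 and 7.26 on DOX-7g and 11.64 and 11.90 on Dor-7g, so both dormant groups lay higher and Dor-7g lay above DOX-7g by 4.13 (adjusted p = 0.0104).

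Of 21 primitive endoderm genes, 5 (23.8%) were separated higher and 2 (9.52%) lower, against 9.14% and 13.4% of all genes. Sparc, a secreted matrix protein, read 7.79 and 7.63 on day 4, and 8.83 to 9.16 on the day-7 arrays, with a change of 1.30 that fell just short of the threshold (adjusted p = 0.0534). The defining factors Gata4 and Sox17 were not separated. Trophectoderm genes had 6 of 25 higher and 5 lower, with Krt18 at 0.42 and Cited1 at -1.19, and neither Cdx2 nor Eomes was separated. The X-linked homeobox genes Rhox5, Rhox6 and Rhox9, named after their values were seen, were each separated higher. Rhox6, a gene of placental and germ cells, read 6.72 and 5.39 on day 4, 11.19 and 12.08 on DOX-7g and 9.83 and 10.35 on Dor-7g (4.81, adjusted p = 0.0830). Rhox13, named in the same way, read 9.56 and 9.69 on DOX-7g and 3.84 and 3.62 on Dor-7g, next to 3.84 and 3.43 on day 4.

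Other lists held separated genes in both directions and no call. Of 29 p53 targets and cell cycle inhibitors, 4 (13.8%) were separated higher and 4 (13.8%) lower, against 9.14% and 13.4% of all genes. In limma 4 of the 29 had an unadjusted p under 0.05, as did 1379 of all 14020 genes. Cdkn1c, the imprinted inhibitor p57, read 6.38 and 6.46 on day 4, 7.36 and 7.03 on DOX-7g and 6.73 and 6.88 on Dor-7g (0.58, adjusted p = 0.422), whereas the inhibitor Cdkn2c gave -0.68. Over all genes tested, 7161 had a pooled change above 0 and 6859 below. Of the 11 Cdk inhibitors and antiproliferative genes tested, 9 lay above 0 and 2 below, with a median of 0.23. Against day 4 their median was 0.33 in DOX-7g and -0.04 in Dor-7g. Of 12 heat shock genes, 4 were separated lower and 1 higher. Hspd1, the mitochondrial chaperonin, gave -0.81, and the small chaperone Hspb1 gave 0.88, with 0.23 on its other probeset. Of 23 histone genes, 4 were separated higher and 5 lower; the median change was 0.98 in DOX-7g and -0.21 in Dor-7g, each against the same day-4 arrays. Of 15 transcripts typical of the 2-cell stage, 1 was separated, with medians of 4.09 in DOX-7g and -0.08 in Dor-7g.

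The next 3 lists stand beside 9.14% of all genes separated higher and 13.4% separated lower. Among metallothioneins, which bind zinc and copper, 1 of 5 was separated higher and 1 lower. Mt2 was bright throughout, at 13.70 and 13.77 on day 4 and 13.89 to 13.92 on day 7. Mt4, the form of stratified epithelium, read 10.89 and 9.82 on day 4, 8.78 and 7.49 on DOX-7g and 3.96 and 4.56 on Dor-7g, lower in both groups and furthest in Dor-7g. Of 24 implantation ligands, receptors and integrins, 3 were separated higher and 3 lower. Lgals3, galectin-3, a sugar-binding protein of the trophoblast surface, read 7.42 and 7.49 on day 4 and 8.14 to 8.60 on day 7 (0.86, adjusted p = 0.174). Of 27 chromatin regulators, 7 were separated lower and 1 higher. Suz12, a subunit of the Polycomb complex PRC2, read 6.91 and 7.25 on day 4 and 5.90 to 6.40 on day 7, a change of -0.95 that missed the threshold (adjusted p = 0.185).

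Of 19 known let-7 targets tested, 14 had a pooled change below 0 and 5 above, with a median of -0.13. Over all 14020 genes, 6859 lay below 0 and 7161 above. Of these 19, 4 (21.1%) were separated lower and 1 (5.26%) higher, against 13.4% and 9.14% of all genes, and none was called. Igf2bp3, which binds messenger RNAs of growth genes, read 8.33 and 8.31 on day 4, 7.45 and 7.44 on DOX-7g and 7.11 and 7.75 on Dor-7g (-0.88, adjusted p = 0.229). Hmga2, a chromatin protein of growing cells, gave -0.25, and Lin28a, which blocks let-7 maturation, read 6.15 and 6.04 on day 4 and 5.71 to 6.19 on day 7. Neither was separated, and Lin28b was too dim to be tested. Arrays read RNA levels, not the block of translation by let-7.

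Both dormant groups were set against each other with the fit that gives each of the 3 groups its own mean. Of 14020 genes, 163 (1.16%) differed between DOX-7g and Dor-7g, and so did 38 of the 3160 separated genes, 15 of those higher (1.17%) and 23 of those lower (1.22%). These shares are near the background of 1.16%, and separation itself used the values on the day-7 arrays. Without Dor-7g replicate 2 the 38 became 322, without DOX-7g replicate 2 they became 17, and without DOX-7g replicate 1 they became 22. None of the 30 called genes differed between both groups in limma. An unadjusted p under 0.05 for that difference was reached by 3 of those that rose, 2 of those that fell and 1624 of all 14020 genes. The pooled fit counts such a difference as spread and tends to leave out genes that differ. BC048679, named after its values were seen, is an example: it read 13.01 and 12.76 on day 4, 10.61 and 10.85 on DOX-7g and 6.15 and 5.08 on Dor-7g. It lay lower in both, by unequal amounts, with 5.11 between them (adjusted p = 0.00369). Gm4340, of a family active in 2-cell embryos, read 13.13 and 13.23 on DOX-7g and only 6.51 and 6.29 on Dor-7g, against 5.81 and 6.16 on day 4.

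**Figure D5:**
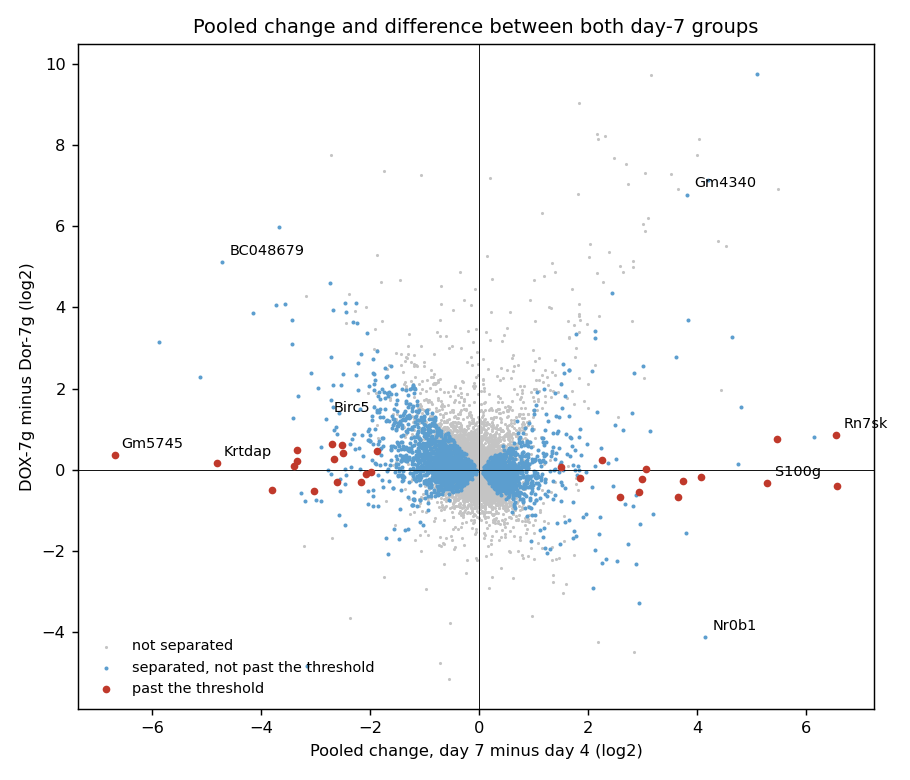
Pooled change, day 7 minus day 4 (log2, horizontal), against DOX-7g minus Dor-7g (log2, vertical) for the 14020 genes tested; grey genes are not separated, blue ones separated and red ones called. The 30 red points lie near the horizontal line, while BC048679, Nr0b1 and Gm4340 are separated with differences of 5.11, -4.13 and 6.78 between both dormant groups.

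The separated genes were mostly small changes. Their median absolute pooled change was 0.42 among those higher and 0.58 among those lower, against 0.20 over all genes tested. A change of at least 1 log2 unit was reached by 184 of the higher and 439 of the lower ones. The gap between the nearest day-7 and the nearest day-4 array was under 0.1 in 626 of the former (48.9%) and in 604 of the latter (32.1%), and at least 1 in 38 and 84. At the edge of the rule stood Pot1b, separated lower with its nearest arrays at 4.66 and 4.66, and Kdm4a, not separated, with arrays of both days at 4.88. Genes separated lower were brighter on day 4, with a median of 7.07 against 5.42 for those separated higher and 5.72 for all. On day 7 these medians were 6.30, 5.90 and 5.73. The rule picks genes separated lower for higher levels on day 4, so part of the day-4 difference is set by it. Protein-coding genes made up 96.1% of those lower and 87.0% of those higher, against 90.2% of all, and long noncoding RNAs 2.39% and 7.49%, against 6.11%. Wfdc15a and Uchl1 had wide gaps of 2.71 and 2.41 and were not called; the other probeset of Uchl1 gave a change of 0.10 where the brightest gave -3.41.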

How the data were processed

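Gene expression was read on 6 arrays. The deposited table holds log2 values for 41345 probesets; per the submitters' processing notes the authors used Partek 6.6 and RMA, with no settings given. RMA brings arrays to a common distribution, so a change in total RNA per embryo is not read. Of the probesets, 23521 had 1 symbol in the platform annotation, 1814 had more than 1, and the other 16010 stay unnamed; symbols were updated through RefSeq (GRCm38.p6), where 193 identifiers found no match. The brightest probeset stood for a gene. Genes at or above the array's median on 2 of 6 arrays were tested, with limma 3.58.1 (R 4.3.3), with no block and no trend. The pooled fit has 4 residual degrees of freedom and 2.48 prior ones. The Benjamini-Hochberg adjustment ran over all genes tested. Changes are differences of mean log2 levels. Alternatives covered scaling, filters, the model, the probeset rule, a replicate block and each array left out. The members and gene lists were chosen with earlier results of these data known. Named genes were the 12 largest rises and falls past the threshold, the largest among bright genes, those with the widest gap, and the list members with the smallest p; further list members are given as examples chosen with their values known, and other genes named after their values were seen are marked. Promoters were 250 bases before the RefSeq start, for 10881 of 14020 genes. On simulated data of 14020 genes, the pooled fit recovered 28.4%, 91.0% and 93.9% of changes of 1, 2 and 3 log2 units, with 1 unchanged gene called. In that simulation DOX-7g and Dor-7g had the same mean in every gene, and the noise was the spread within groups. In the real arrays a difference between both dormant groups counts as spread in the pooled fit, so these shares do not hold for genes with such a difference.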

Additional observations from a re-analysis of the deposited data

Results flagged for a closer look

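Among the 123 genes looked at, 1 of the 4 day-7 arrays stood apart in 6, by a gap to the nearest of the others that passed Dixon's 95% limit; chance alone gives about 1 in 20 such groups. Rplp2, a protein of the large ribosomal subunit, was lowest at 5.1523 on Dor-7g replicate 1, against 6.63 to 6.74 on the other day-7 arrays. Slc7a3, an amino acid transporter, was lowest at 5.0756 on the same array, and Ska1 was lowest at 4.7448 on Dor-7g replicate 2. Asns was highest at 7.3601 on Dor-7g replicate 2. H1f8, the oocyte linker histone, was highest at 5.8398 on DOX-7g replicate 2, and Nlrp14, an oocyte gene, was lowest at 4.3065 on DOX-7g replicate 1. All 6 genes were separated, and none was called.

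Of the 38 separated genes that differed between DOX-7g and Dor-7g in limma's test of the difference, 4 were among the 123 genes looked at for flags. BC048679 (5.11) and Nr0b1 (-4.13), named above after their values were seen, differed too and were not among the 123. DOX-7g minus Dor-7g was 6.7828 for Gm4340, 4.0702 for Ly6f, 3.8757 for Mt4 and 2.7895 for S100a9 (log2). Ly6f and Mt4 lay lower than day 4 in both groups and furthest in Dor-7g, whereas Gm4340 and S100a9 lay higher in both and furthest in DOX-7g.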

How the results depend on the processing

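The 30 calls became 145 with 3 group means, 184 with array weights, 82 at an adjusted p of 0.10 and 24 to 33 under the other normalizations, filters, variance model and probeset rule. Leaving out 1 array gave 1 to 32 calls, with 1 where a lone day-4 array was assumed to vary like the others; 5 of the 30 were called in all 4 fits without a day-7 array. With the replicate number as a block 10 genes were called. The numbers do not pair the samples: deviations of same-numbered arrays correlated at -0.01, -0.02 and -0.14. The 3160 separated genes became 3850 to 5671 without 1 array, as fewer arrays have to agree. The 38 separated genes that differed between both dormant groups became 22 with all 6 arrays at or above the median, 24 with array weights and 17 to 322 without 1 array. The G2/M median was -0.44 with no filter, where all 61 members with a probeset count instead of 49. With median centring the replication median was -0.39. That centring moves the change of every gene by the same amount, and the median over all genes went from 0.01 to -0.05. Over the settings 23 to 39 G2/M members were separated lower and 7 to 11 S100 members higher; whether these are the same genes was not counted. Of 2101 values of named genes under alternatives, 1885 stayed on their side of the threshold in the same direction, 151 lost the threshold, 65 gained it and 0 reversed. Dim genes give compressed changes, and 6 arrays limit every value.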
